A study of Mus musculus with 8 samples.

Results

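H3K9 acetylation at the promoters of 37 DNA damage repair genes was described in *NUP98-HOXD13-tg* mouse bone marrow (BM). The genes were listed by name, and the peak at each was chosen by 1 rule: the strongest H3K9ac peak, by fold enrichment, within 1 kb on either side of any transcription start site (TSS) of the gene in mm10. Together they are 37 of 21938 protein-coding genes, of which 12557 had such a promoter peak in at least 1 library. Each peak was given a rank from 0 to 100 among the promoter peaks of its own library, where 100 is the strongest and 0 means that no peak was called. All mice carried the *NUP98-HOXD13* transgene, which models myelodysplastic syndrome that can progress to acute myeloid leukaemia, on a C57BL/6 background. They differed at *Gfi1*, which encodes a transcriptional repressor that recruits histone-modifying enzymes: *GFI1-36S* mice express the common human form, *GFI1-36N* mice a variant with asparagine in place of serine, and *GFI1-KD* mice a reduced level of GFI1. For each genotype there was 1 library from a mouse given vehicle (DMSO) and 1 from a mouse given curcumin, at 20 mg/kg by weekly intraperitoneal injection. Curcumin is a plant polyphenol that inhibits histone acetyltransferases among other targets. The 6 H3K9ac libraries were made from cells labelled as whole BM, which the study's methods describe as frozen and whose ChIP results it also titles as c-kit+ cells, and the remaining 2 samples of the series, an input and a rabbit IgG control, were not used here. The ages of the mice behind each library are not given in the sources used here.

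Each genotype and treatment has 1 library, so differences could not be set against replicates and carry no p-value. A change of at least 10 rank points was used to call a promoter higher or lower. Counts of members at this call are set beside the share of all protein-coding genes that passed it, except under the alternative settings given last. Depth was recovered at the peak summits as a number of fragments, from the fold enrichment and the p-value of each peak. The members had 23 to 284 fragments at their summits, with a median of 128.5 over 216 peaks. The 95% Poisson interval of these fragments, carried over to the rank, was 25.09 rank points wide in the median member peak. It covers counting error only. Within a genotype, the rank intervals of the 2 libraries overlapped for every change of 10 to 25 points except that of *Xrcc5* in *GFI1-KD* mice. Such overlap neither places a change within counting error nor shows that it exceeds it.

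H3K9ac marks nucleosomes next to the start sites of active genes, and repair genes are used by nearly all dividing cells. Double-strand breaks are sensed by the Mre11a, Rad50 and Nbn complex and signalled by the kinases Atm, Atr, Chek1 and Chek2. They are repaired from a sister copy by homologous recombination or are rejoined by end joining. Nicks and small base lesions, mismatches, bulky adducts and interstrand crosslinks each have a pathway of their own, and O6-methylguanine is reversed directly by the protein encoded by *Mgmt*. In myeloid disease these pathways are best known for their link to therapy response and, for the Fanconi anaemia genes, to inherited marrow failure.

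Labels and libraries were checked first. The 6 peak lists held 20354 to 49213 peaks and 9726 to 11801 protein-coding promoters with a peak. The *GFI1-36S* curcumin library stood apart. It had the fewest peaks, and it alone had peaks on chromosome Y, 3 in number. It had a peak at 13 of 14 T-cell marker promoters with ranks of up to 90.8 (5 of 14 with vehicle, up to 20.6), at 0 of 18 neutrophil marker promoters (16 with vehicle), at 1 of 12 erythroid marker promoters (12 with vehicle) and at 1 of 12 progenitor marker promoters (10 with vehicle). The *GFI1-KD* curcumin library had a peak at 9 of 18 neutrophil and 4 of 12 erythroid marker promoters, against 17 and 12 with vehicle. In the *GFI1-36N* pair these counts were 13 and 13 of 18 neutrophil and 8 and 6 of 12 erythroid marker promoters. The names of the 2 *GFI1-36S* peak lists carry the opposite treatments to their labels. The labels were followed. An exchange turns the sign of every *GFI1-36S* change below and swaps the libraries behind each comparison of *GFI1-36S* with another genotype. For *GFI1-36N* the list names mark the vehicle mouse as heterozygous and the curcumin mouse as homozygous, without a counterpart in the labels. In each of these pairs, treatment cannot be told apart from the mouse, its cell makeup or, for *GFI1-36N*, the copy number of the variant.

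Nearly all repair promoters carried H3K9ac in every library. Of the 37 members, 35 had a promoter peak in all 6 libraries, as did 74.4% of the 12557 genes with a peak in any library. The exceptions were *Mgmt*, with a peak in 3 libraries, and *Slx4*, which is described below. For *GFI1-36S* the members had a median rank of 57.5 (vehicle) and 62.0 (curcumin). It was 56.6 with vehicle and 57.8 with curcumin for *GFI1-36N*, and 55.2 with vehicle and 53.8 with curcumin for *GFI1-KD*. In 21 members the median rank over the 6 libraries was at least 50. *Prkdc*, which encodes the catalytic subunit of DNA-dependent protein kinase, *Lig3*, the ligase that seals single-strand breaks, and *Ercc4*, a nuclease subunit of nucleotide excision repair, had a rank of at least 75 in every library. *Ercc4* had the highest median rank at 89.2, ahead of *Brca2* at 85.6 and *Prkdc* at 83.0. The lowest ranks belonged to *Mgmt* and to *Xrcc5*, the Ku80 subunit of the end-joining sensor, both below 25 in every library.

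**Figure D1:**
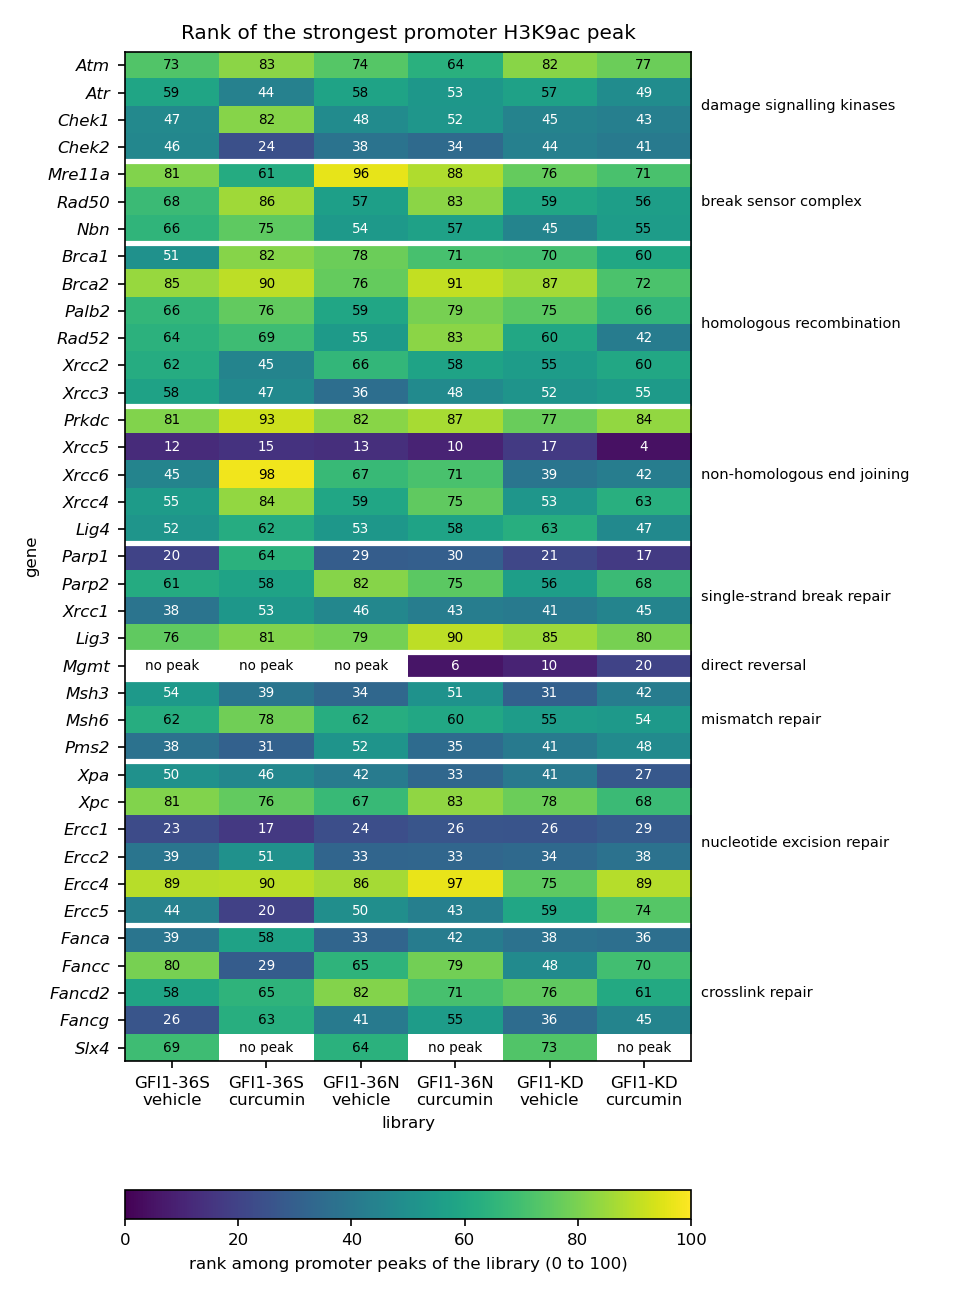
Rank (0 to 100, colour and number) of the strongest promoter H3K9ac peak of the 37 repair genes (rows, grouped by role) in the 6 libraries (columns), 1 library per genotype and treatment; white cells have no promoter peak. Prkdc, Lig3 and Ercc4 were at 75 or above throughout, Xrcc5 and Mgmt were below 25, and the white cells belong to Mgmt and Slx4.

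The median size of the change with curcumin, whatever its direction, was 13.16 rank points in the *GFI1-36S* pair (11.61 over all genes with a peak in the pair). It was 8.33 for *GFI1-36N* (all genes 5.99) and 9.10 for *GFI1-KD* (all genes 5.97). These sizes were not matched for rank. Weak peaks can have narrower rank intervals, such as 13.1 to 22.1 for *Xrcc5* in *GFI1-KD* vehicle, against a median width of 25.09 points. Of the members, 2 were below 25 in every library. In the *GFI1-36S* pair the median change of the 36 members with a peak was 5.32 rank points, against −6.61 over all 11608 genes with a peak in the pair. Of these members, 12 were higher by at least 10 points (15.0% of all genes) and 9 were lower (41.4% of all genes). In the *GFI1-36N* pair the median change was 2.97 (all genes 1.89), with 12 of 37 members higher (19.3% of all genes) and 4 lower (11.3%). In the *GFI1-KD* pair the median change was −1.38 (all genes −2.34), with 8 of 37 members higher (9.47% of all genes) and 8 lower (20.6%). The lower share of members called lower in *GFI1-36S* mice was seen as well over the genes with a peak in all 6 libraries, where 8 of 35 members (22.9%) were lower against 40.3% of all 9341 such genes. The change of T-cell, neutrophil, erythroid and progenitor markers between those 2 libraries was given above, and its part in this difference was not tested.

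**Figure D2:**
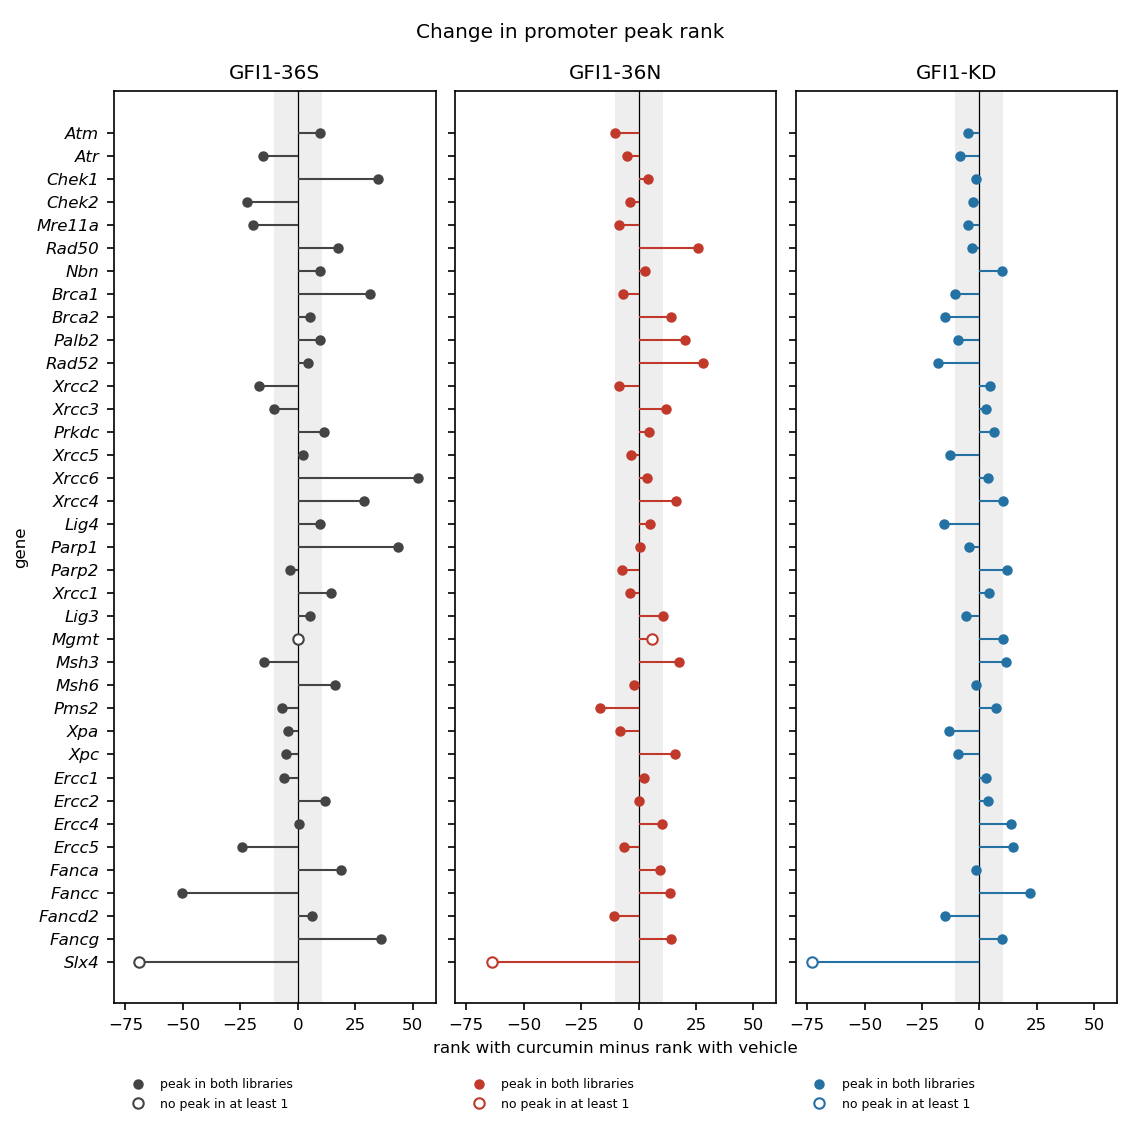
Change in promoter peak rank, curcumin minus vehicle (x axis, rank points), of each of the 37 repair genes (y axis) in the 3 genotypes, 1 library per group; the grey band spans −10 to 10 and open points lack a peak in at least 1 of the 2 libraries. Changes reach 52.6 for Xrcc6 in GFI1-36S mice and stay within 30 points for all members except Slx4 in GFI1-36N and GFI1-KD mice.

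Few members changed alike in the 3 genotypes. *Xrcc4* alone was higher by at least 10 points in all 3 pairs, and *Slx4* alone was lower in all 3, as were 1.5% of all genes with a peak. Without the *GFI1-36S* pair, *Xrcc4*, *Msh3*, *Ercc4* and *Fancc* were higher and *Fancd2* and *Slx4* lower in both *GFI1-36N* and *GFI1-KD* mice. These are 4 and 2 of the 37 members, against 2.19% and 2.56% of all genes with a peak. When ranked by −log10 p, *Fancc* in *GFI1-KD* mice was below the call, at 8.53. A total of 13 members stayed within 10 points in both of these pairs, against 52.8% of all genes, and *Ercc1* alone did so in all 3, against 30.1% of all genes. These shares too were not matched for rank. *Brca2* and *Rad52* were higher in *GFI1-36N* and lower in *GFI1-KD* mice, a pattern of 4.24% of all genes with a peak.

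*Slx4* encodes a scaffold that holds structure-specific nucleases at interstrand crosslinks. By the rule it had a rank of 68.9, 63.9 and 72.7 with vehicle in *GFI1-36S*, *GFI1-36N* and *GFI1-KD* mice and no promoter peak with curcumin in any of them. A peak in all 3 vehicle libraries and in no curcumin library was found at 30 genes, 0.239% of those with a peak in any library. Within a pair, a peak in the vehicle library only was found at 16.2% of the genes of the *GFI1-36S* pair, 1.84% of the *GFI1-36N* pair and 6.73% of the *GFI1-KD* pair. Among the 30 genes with a peak in all 3 vehicle and no curcumin library, *Slx4* had the highest vehicle rank, and the next highest was 31.4. The treatments differed in where the edge of a peak lay. A strong peak lay upstream of the annotated start in all 6 libraries, and its near edge reached into the window of 1 kb with vehicle only.

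The peak spanned chr16:4002530-4004576 in *GFI1-36S* vehicle and chr16:4003041-4004466 in *GFI1-36S* curcumin (mm10, gene on the minus strand). Its near edge was 850, 586 and 717 bp from the start site with vehicle and 1361, 1156 and 1310 bp with curcumin, in the order *GFI1-36S*, *GFI1-36N* and *GFI1-KD*. The peak was 2047, 2257 and 2200 bp wide with vehicle and 1426, 1799 and 1625 bp wide with curcumin. It was thus narrower with curcumin in all 3 pairs. The summit held 147 and 95 fragments in the *GFI1-36S* pair, 143 and 155 in the *GFI1-36N* pair and 210 and 141 in the *GFI1-KD* pair, vehicle first. Scaled to the genome background of each library, the curcumin over vehicle ratio of the summit was 0.678 (95% counting interval 0.519 to 0.884) in *GFI1-36S*, 1.342 (1.062 to 1.697) in *GFI1-36N* and 0.832 (0.667 to 1.035) in *GFI1-KD* mice. The medians of all promoters with a peak in both libraries were 0.583, 1.246 and 0.885, and each lay inside the interval of *Slx4*. Counted as a promoter peak, it would rank at 68.9, 63.9 and 72.7 with vehicle and at 75.9, 71.9 and 66.4 with curcumin.

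The summit lay at −1939 to −1822 bp relative to the start site used by the rule, which is at position 4001680 of chromosome 16. It lay 151 to 268 bp downstream of a further *Slx4* start at 4003770, which is part of the comprehensive but not of the basic GENCODE set. With a window of 3 kb, or with the comprehensive set, *Slx4* had a promoter peak in all 6 libraries. The 3 kb window gave a peak in all 6 libraries to 3 of the 30 genes with the vehicle pattern: *Slx4*, *H2-Ab1* and *Gm9821*. The sequences at the 2 starts differ in CpG content, and both are shown from mm10 with each CpG in capitals. The RefSeq promoter (GRCm38.p6) at the start used here, chr16:4001629-4001928 on the minus strand, holds 4 CpG in 300 bp and 41.3% G and C. The window at the upstream start, chr16:4003721-4004020 on the minus strand, holds 28 CpG and 60.3% G and C.
Slx4, start used by the rule: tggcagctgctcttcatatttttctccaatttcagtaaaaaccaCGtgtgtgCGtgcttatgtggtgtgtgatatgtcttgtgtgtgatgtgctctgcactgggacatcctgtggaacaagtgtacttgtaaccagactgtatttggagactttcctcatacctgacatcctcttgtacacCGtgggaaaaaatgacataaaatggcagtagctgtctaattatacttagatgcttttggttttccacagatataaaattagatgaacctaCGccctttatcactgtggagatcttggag
Slx4, upstream start: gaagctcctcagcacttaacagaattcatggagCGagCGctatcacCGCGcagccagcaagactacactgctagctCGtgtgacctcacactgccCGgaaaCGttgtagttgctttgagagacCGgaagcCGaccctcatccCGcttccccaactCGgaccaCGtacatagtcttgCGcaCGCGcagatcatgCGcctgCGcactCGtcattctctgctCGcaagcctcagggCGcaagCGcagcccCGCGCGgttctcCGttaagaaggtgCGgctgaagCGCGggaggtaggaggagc

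**Figure D3:**
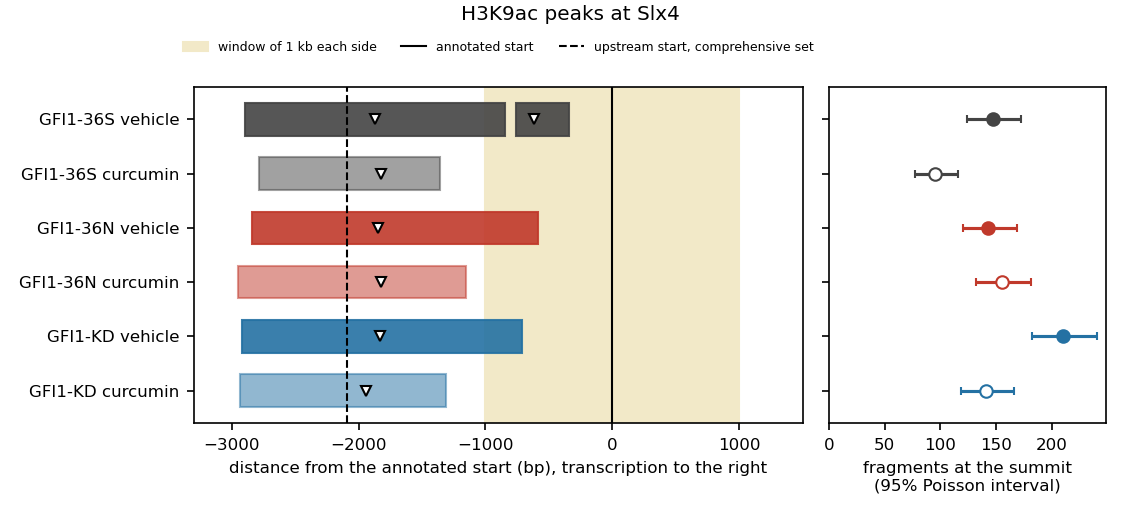
Left, H3K9ac peaks at Slx4 in the 6 libraries as distance from the annotated start (bp, transcription to the right), with summits as triangles, the 1 kb window shaded and the upstream start dashed. Right, fragments at the summit of the strongest peak with 95% Poisson intervals; the peak is present in all 6 libraries with 95 to 210 fragments, and its right edge enters the window with vehicle only.

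*Mgmt* encodes the methyltransferase that removes alkyl groups from O6-methylguanine, and its silencing is known to sensitise tumours to alkylating agents. No peak lay near its start in the *GFI1-36S* vehicle, *GFI1-36S* curcumin or *GFI1-36N* vehicle library, where the nearest peak was 515402 to 515787 bp away. *GFI1-36N* curcumin had a peak of rank 5.74 with 23 fragments at the summit (rank interval 0.17 to 11.8), and 5.73% of the genes of this pair had a peak with curcumin only. *GFI1-KD* vehicle had a peak of rank 9.91 with 41 fragments (5.27 to 14.6), and *GFI1-KD* curcumin a peak of rank 20.1 with 62 fragments (14.2 to 28.6). The *GFI1-KD* libraries were thus the highest, and the *GFI1-36S* libraries had no peak under either treatment. The peaks spanned −151 to 617 bp and −111 to 385 bp from the start in *GFI1-KD* vehicle and curcumin and 31 to 463 bp in *GFI1-36N* curcumin. Both *GFI1-KD* libraries had a second, weaker peak upstream, from −525 to −245 bp with vehicle and from −573 to −286 bp with curcumin.

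In *GFI1-KD* mice the *Mgmt* summit was 1.874-fold higher with curcumin (95% counting interval 1.243 to 2.853), the highest ratio of the 36 members compared, while the median of all promoters was 0.885. The rank intervals of the 2 libraries overlapped narrowly. Between the curcumin libraries of *GFI1-KD* and *GFI1-36N* mice the rank differed by 14.4 points and the intervals did not overlap. The same pattern of peaks, in both *GFI1-KD* libraries and *GFI1-36N* curcumin only, was shared by 49 genes, 0.39% of those with a peak. With the lists reduced to the 20354 strongest peaks each, the *GFI1-36N* curcumin peak was no longer present and the *GFI1-KD* ranks were 3.93 and 16.3. The *Mgmt* promoter is shown because it is the only member promoter with no peak nearby in some libraries and a peak in others. Its RefSeq promoter, chr7:136894336-136894635 on the plus strand, holds 20 CpG and 4 GC boxes (GGGCGG on either strand, in capitals).
Mgmt: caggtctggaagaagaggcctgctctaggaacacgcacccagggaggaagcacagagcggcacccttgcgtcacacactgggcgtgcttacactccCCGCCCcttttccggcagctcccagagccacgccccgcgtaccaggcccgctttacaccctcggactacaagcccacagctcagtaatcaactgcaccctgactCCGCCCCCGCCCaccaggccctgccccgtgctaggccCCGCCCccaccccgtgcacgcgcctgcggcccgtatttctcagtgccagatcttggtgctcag

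**Figure D4:**
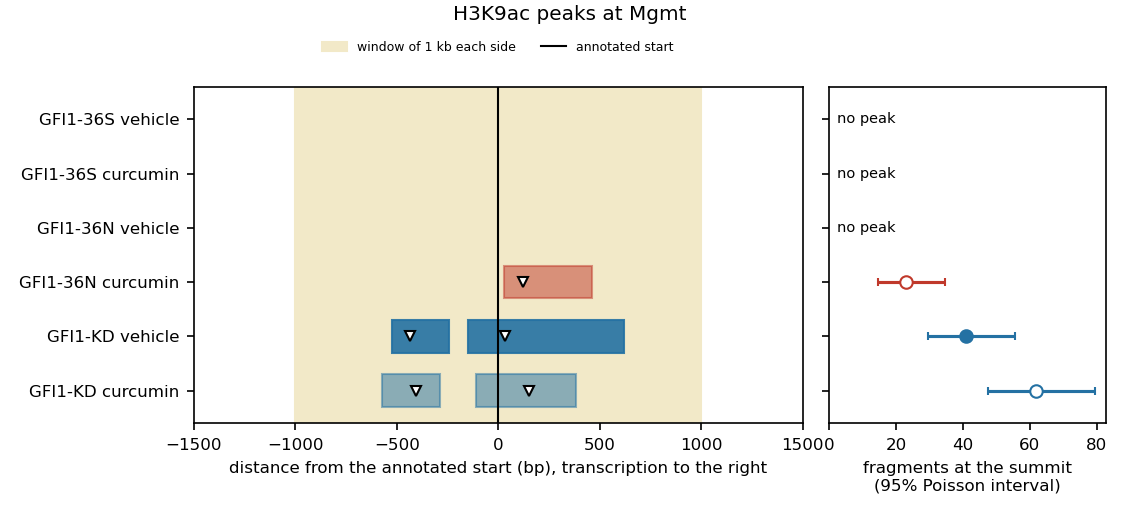
Left, H3K9ac peaks around the Mgmt start in the 6 libraries as distance from the start (bp), with summits as triangles and the 1 kb window shaded. Right, fragments at the summit of the strongest peak with 95% Poisson intervals, which number 23, 41 and 62 in the 3 libraries with a peak.

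Among the damage signalling kinases, *Atm*, the kinase activated by double-strand breaks, had the highest ranks, from 63.5 to 82.6. It was 72.9 and 82.6 in the *GFI1-36S* pair, 73.6 and 63.5 in the *GFI1-36N* pair and 82.2 and 77.4 in the *GFI1-KD* pair, so it passed the call in *GFI1-36N* mice alone. The *Atm* summit lay at −668 to −574 bp from the start, and the peak covered the *Atm* and *Npat* starts, 307 bp apart, in 1 library only. *Chek1*, which enforces the S and G2 checkpoints downstream of Atr, had ranks of 47.0 and 82.0 in the *GFI1-36S* pair, 48.4 and 52.4 in the *GFI1-36N* pair and 44.7 and 43.4 in the *GFI1-KD* pair. Only the *GFI1-36S* curcumin library was high, and there the rank intervals of vehicle (35.2 to 62.1) and curcumin (66.3 to 92.4) did not overlap. *Atr* and *Chek2*, which act on replication stress and downstream of Atm, were lower with curcumin in *GFI1-36S* mice, at 58.9 and 43.9 and at 46.4 and 24.3. All 4 kinases stayed within 10 points in *GFI1-KD* mice.

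In the break sensor complex, *Rad50*, the ATPase that tethers broken ends, had ranks of 68.3 and 85.7 in the *GFI1-36S* pair, 56.6 and 82.7 in the *GFI1-36N* pair and 59.0 and 55.9 in the *GFI1-KD* pair. It was higher with curcumin in the first 2 pairs. Its summit ratio in *GFI1-36N* mice was 1.645 (1.303 to 2.079), above the median of all promoters at 1.246. *Mre11a*, the nuclease of the complex, went from 81.0 to 61.3 in *GFI1-36S* mice and had its highest rank, 96.3, in *GFI1-36N* vehicle. *Nbn*, which recruits Atm, was at 45.2 and 55.3 in the *GFI1-KD* pair, a change that only just passed the call.

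Of the 6 homologous recombination genes, 4 were higher (19.3% of all genes) and 0 lower (11.3%) in *GFI1-36N* mice, with a median change of 13.07 (all genes 1.89). In *GFI1-KD* mice 0 were higher (9.47% of all genes) and 3 lower (20.6%), with a median change of −9.78 (all genes −2.34). One of the 4 is *Xrcc3*, whose rank came from different peaks in the 2 libraries. *Rad52*, which anneals single strands, had ranks of 64.1 and 68.8 in the *GFI1-36S* pair, 54.7 and 82.7 in the *GFI1-36N* pair and 59.9 and 42.1 in the *GFI1-KD* pair. The 2 curcumin libraries of *GFI1-36N* and *GFI1-KD* mice were thus 40.6 points apart, with rank intervals that did not overlap (68.9 to 92.6 and 31.1 to 56.3). *Brca2*, which loads the recombinase onto resected ends, had ranks of 84.6 and 89.9, 76.4 and 90.7, and 86.7 and 71.7 in the same order of pairs. *Palb2*, which joins Brca1 to Brca2, had ranks of 66.1 and 75.9, 59.2 and 79.3, and 74.9 and 65.8. The vehicle intervals of *Rad52*, *Brca2* and *Palb2* overlapped with those of curcumin within each genotype.

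*Brca1*, which directs broken ends to recombination, had ranks of 50.7 and 82.0 in the *GFI1-36S* pair, 77.7 and 70.8 in the *GFI1-36N* pair and 70.1 and 59.7 in the *GFI1-KD* pair. The summit lay at −341 bp from the start in *GFI1-36N* vehicle and at −1331 to −1136 bp elsewhere, on the *Nbr1* side. The peak covered the *Brca1* and *Nbr1* starts, 270 bp apart, in 3 libraries only. In both *GFI1-36S* libraries and in *GFI1-KD* curcumin it did not reach the *Brca1* start. *Brca1* was lowest in *GFI1-36S* vehicle and highest in *GFI1-36S* curcumin, with rank intervals of 39.2 to 63.7 and 66.3 to 92.4. Its summit ratio in that pair was 0.689 (0.532 to 0.889), so the summit was lower relative to background with curcumin, and the median of all promoters, 0.583, lay inside the interval. *Xrcc2* and *Xrcc3*, paralogs of the recombinase, were both lower with curcumin in *GFI1-36S* mice, and *Xrcc3* was higher in *GFI1-36N* mice, at 36.2 and 48.0. In both pairs the strongest *Xrcc3* peaks of the 2 libraries did not overlap, with summits 702 and 762 bp apart, so these values compare different peaks. The same held for *Lig4* in *GFI1-36S* mice, with summits 1928 bp apart, and for no other member within a genotype. Over all promoters with a peak in both libraries, 2.63%, 1.94% and 1.37% had strongest peaks that did not overlap in the *GFI1-36S*, *GFI1-36N* and *GFI1-KD* pairs.

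All 5 end-joining genes were higher with curcumin in *GFI1-36S* mice, and 3 of them passed the call (15.0% of all genes). The rise of 9.79 at *Lig4* compares the different peaks named above. *Xrcc6*, the Ku70 subunit that binds broken ends, had ranks of 45.3 and 97.9 in the *GFI1-36S* pair, 67.5 and 71.3 in the *GFI1-36N* pair and 38.8 and 42.5 in the *GFI1-KD* pair. The change of 52.6 in *GFI1-36S* mice was the largest rise of any member in any pair. The summit held 148 fragments with vehicle and 203 with curcumin, and the ratio was 1.44 (1.159 to 1.792) where the median of all promoters was 0.583. In both *GFI1-36S* libraries this peak covered an annotated *Xrcc6* start but ended short of the one nearest to the *Desi1* start, 206 bp from it. A second, weaker peak lay next to that start, with fold enrichments of 9.04 (vehicle) and 12.8 (curcumin). In the *GFI1-36N* and *GFI1-KD* libraries 1 peak covered both of these starts. The *GFI1-36S* curcumin library also had further peaks around and within *Xrcc6*, 7 of them at gene body sites with no peak in the other libraries, 1 of which lies within 1 kb of another annotated transcript start. *Xrcc4*, the partner of ligase IV, had ranks of 54.9 and 83.7, 59.2 and 75.4, and 52.6 and 63.0 in the *GFI1-36S*, *GFI1-36N* and *GFI1-KD* pairs. Its rise in all 3 pairs is a pattern of 0.549% of the genes with a peak, and the rank intervals overlapped in each pair. The peak covered the *Xrcc4* and *Tmem167* starts, 154 bp apart, in 4 libraries only. In *GFI1-36S* curcumin and *GFI1-36N* vehicle it did not reach the *Xrcc4* start. The summit lay at −314 to −270 bp, on the *Tmem167* side.

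*Xrcc5* had weak peaks throughout, at ranks of 12.2 and 14.6, 13.4 and 10.1, and 17.0 and 4.36. In *GFI1-KD* mice its summit held 74 and 25 fragments, a ratio of 0.419 (0.255 to 0.667), and it was the only member whose rank intervals did not overlap in that pair. By the rule, the Ku subunits *Xrcc5* and *Xrcc6* thus differed in rank in all 6 libraries, although their proteins form 1 heterodimer. In *GFI1-36S* mice this depends on the *Xrcc6* peak taken. The weaker peak next to the start near *Desi1* would rank at 16.7 with vehicle and 51.4 with curcumin. *Lig4*, the ligase of the pathway, was lower in *GFI1-KD* mice at 62.7 and 47.4. *Prkdc* ranged from 77.3 to 92.5 and was higher with curcumin by 4.40 to 11.3 points in the 3 pairs.

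Among the single-strand break repair genes, *Parp1*, the sensor that marks nicks with poly(ADP-ribose), stood out in 1 library. Its ranks were 20.3 and 63.8 in the *GFI1-36S* pair, 29.4 and 30.1 in the *GFI1-36N* pair and 21.2 and 16.9 in the *GFI1-KD* pair. The 5 other libraries lay below 31, and the rank intervals of the *GFI1-36S* pair (15.5 to 27.2 and 46.8 to 79.7) did not overlap. Its summit ratio there was 1.373 (1.012 to 1.868), and *Xrcc6* and *Parp1* were the 2 members with a ratio interval above 1 in *GFI1-36S* mice, against 26 members with an interval below 1. In that pair 0 of 35 members had a summit at least 1.5-fold higher (1.53% of all promoters). A summit at least 1.5-fold lower was found at 16 (68.9% of all promoters). *Parp2*, a second poly(ADP-ribose) polymerase, ranged from 56.2 to 82.0, and *Lig3* from 75.7 to 89.9. *Xrcc1*, the scaffold of the pathway, ranged from 38.3 to 53.0.

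The mismatch repair genes had middle ranks. *Msh3*, which recognises insertion and deletion loops, had ranks of 53.5 and 39.0 in the *GFI1-36S* pair, 33.6 and 51.1 in the *GFI1-36N* pair and 30.7 and 42.1 in the *GFI1-KD* pair. It was lower with curcumin in the first pair and higher in the other two. *Msh6*, which recognises base mismatches, reached 78.4 in *GFI1-36S* curcumin and lay between 53.8 and 62.4 elsewhere. *Pms2*, the endonuclease subunit, went from 51.6 to 34.9 in *GFI1-36N* mice, with overlapping intervals.

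In nucleotide excision repair the levels of the genes differed more than their changes. *Ercc4* ranged from 75.4 to 96.9 and *Xpc*, the damage sensor, from 67.5 to 83.3. *Ercc1*, the partner of Ercc4 in 1 nuclease, ranged from 16.8 to 28.8 and was the only member within 10 points in all 3 pairs. *Ercc5*, the nuclease that cuts on the 3′ side, had ranks of 43.8 and 19.5 in the *GFI1-36S* pair, 49.6 and 43.2 in the *GFI1-36N* pair and 59.0 and 73.5 in the *GFI1-KD* pair. The 3 curcumin libraries thus ran from 19.5 to 73.5, while the vehicle libraries lay between 43.8 and 59.0. Its summit ratio of 0.405 (0.276 to 0.582) in *GFI1-36S* mice was the lowest of the members there and the only 1 with an interval below the median of all promoters. *Xpa*, which verifies the lesion, was at 40.5 and 27.4 in the *GFI1-KD* pair, and the helicase gene *Ercc2* ranged from 32.7 to 50.7.

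The Fanconi anaemia genes differed in direction within the *GFI1-36S* pair. *Fancc*, a core complex subunit, had ranks of 79.7 and 29.0 in the *GFI1-36S* pair, 65.1 and 78.8 in the *GFI1-36N* pair and 47.7 and 69.6 in the *GFI1-KD* pair. It was lower with curcumin in the first pair and higher in the other two, and the intervals were apart in the first only (64.5 to 91.0 and 18.2 to 44.5). The rise in *GFI1-KD* mice was 8.53 points when ranked by −log10 p, below the call. The summit there held 199 fragments with vehicle and 146 with curcumin, without scaling. In *GFI1-36S* curcumin its peak was 653 bp wide with 74 fragments at the summit, against 1663 bp and 165 fragments with vehicle. The other 4 libraries had peaks of 1511 to 1634 bp. *Fancg*, another core subunit, had ranks of 26.2 and 62.6, 41.0 and 55.2, and 35.5 and 45.3, higher with curcumin in every pair, by 9.78 points in *GFI1-KD* mice. *Fancd2*, which the core complex ubiquitinates, was at 58.5 and 64.9, 81.6 and 70.8, and 75.5 and 60.8, and *Fanca* ranged from 32.7 to 57.6.

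The promoters of *Parp1* and *Fancc* are shown because their rank intervals were apart in *GFI1-36S* mice, in opposite directions, and no other coding start lies within 2 kb. The RefSeq promoter of *Parp1*, chr1:180568641-180568940 on the plus strand, holds 20 CpG and 4 GC boxes (capitals). That of *Fancc*, chr13:63431696-63431995 on the minus strand, holds 23 CpG (capitals) and no GC box.
Parp1: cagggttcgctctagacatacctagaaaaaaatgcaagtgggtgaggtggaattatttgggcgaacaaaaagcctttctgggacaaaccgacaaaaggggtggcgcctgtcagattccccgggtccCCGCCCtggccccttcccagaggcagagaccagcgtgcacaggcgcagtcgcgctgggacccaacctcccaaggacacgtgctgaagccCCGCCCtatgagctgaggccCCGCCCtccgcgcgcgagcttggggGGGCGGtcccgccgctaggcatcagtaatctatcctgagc
Fancc: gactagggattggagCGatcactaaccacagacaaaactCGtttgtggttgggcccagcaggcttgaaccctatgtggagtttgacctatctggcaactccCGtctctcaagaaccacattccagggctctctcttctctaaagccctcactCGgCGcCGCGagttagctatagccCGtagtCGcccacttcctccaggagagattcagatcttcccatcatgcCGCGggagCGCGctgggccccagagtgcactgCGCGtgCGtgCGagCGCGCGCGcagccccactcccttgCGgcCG

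The summit heights, unlike the ranks, are free of the order of other peaks. In *GFI1-36S* mice the members' curcumin over vehicle ratio had a median of 0.689 and a range of 0.405 to 1.44 (35 members), while the median of all promoters was 0.583. In *GFI1-36N* mice the median was 1.28 (0.834 to 1.683, 35 members; all promoters 1.246), and in *GFI1-KD* mice it was 0.91 (0.419 to 1.874, 36 members; all promoters 0.885). In each pair the members' median lay on the same side of 1 as that of all promoters. The ratio interval lay above the median of all promoters for 8 members in *GFI1-36S* mice: *Chek1*, *Rad50*, *Prkdc*, *Xrcc6*, *Xrcc4*, *Parp1*, *Parp2* and *Fancg*. It did so for *Rad50* and *Rad52* in *GFI1-36N* mice and for *Mgmt* and *Msh3* in *GFI1-KD* mice. It lay below for *Ercc5*, *Mre11a* and *Xrcc5* in the 3 genotypes, 1 member in each. Over all promoters with a ratio, the interval lay above the median at 16.0%, 7.25% and 7.96% of them, and below it at 13.4%, 7.12% and 8.06%, in the same order. Rank intervals were apart for 6 members in *GFI1-36S* mice (*Chek1*, *Brca1*, *Xrcc6*, *Parp1*, *Fancc* and *Fancg*), for 0 in *GFI1-36N* mice and for 1, *Xrcc5*, in *GFI1-KD* mice. They were apart at 18.7%, 6.22% and 9.21% of all promoters with a ratio in these pairs. Each of the 6 rests on the *GFI1-36S* curcumin library, whose marker promoters and chromosome Y peaks differed from the rest. In addition, the *Brca1* and *Xrcc6* peaks did not cover both starts of their shared promoters in either *GFI1-36S* library.

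**Figure D5:**
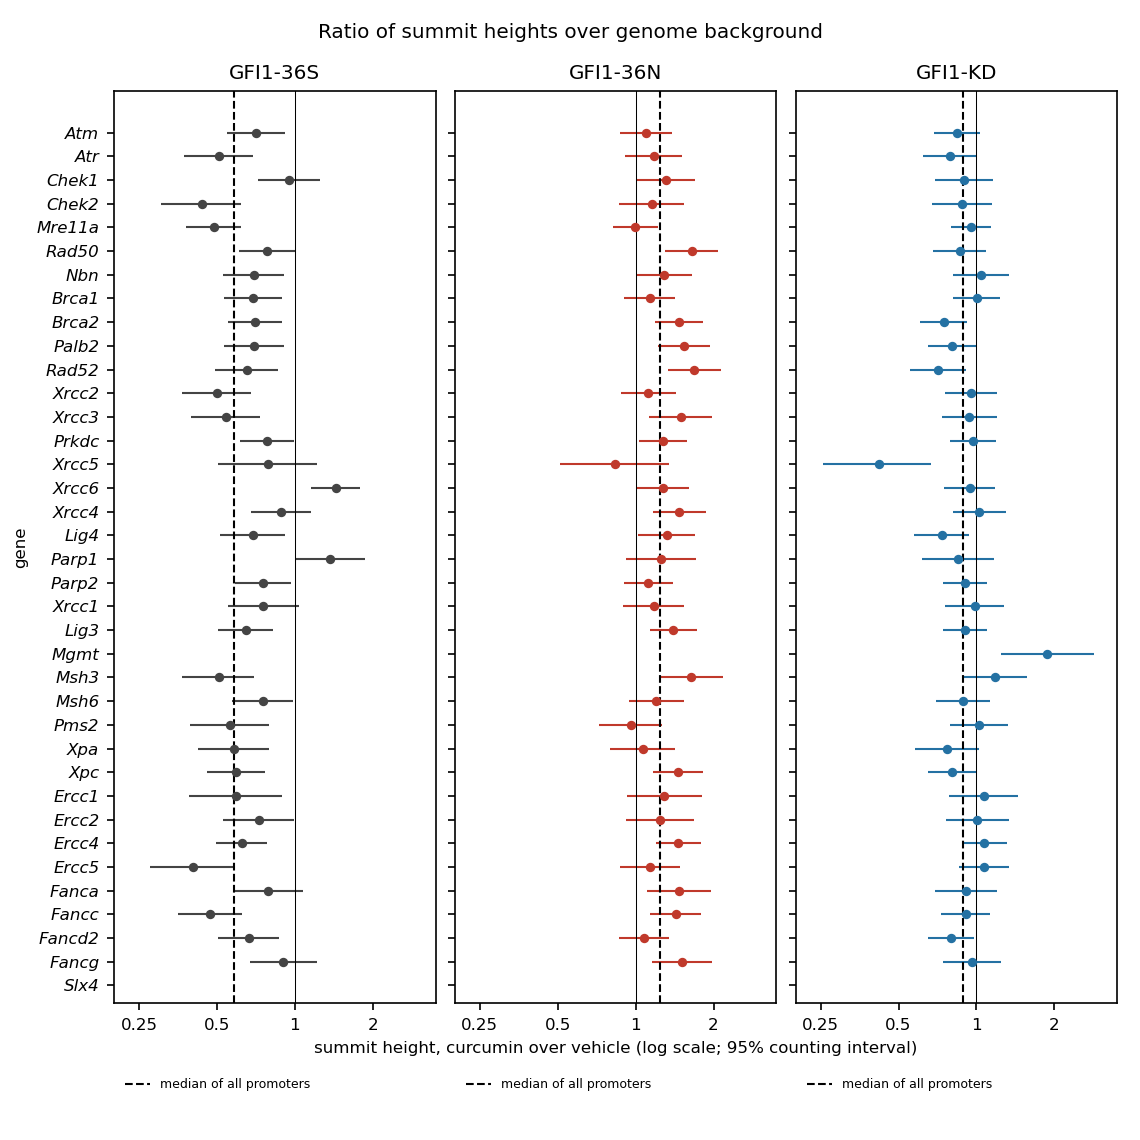
Ratio of summit height over genome background, curcumin over vehicle (x axis, log scale), of each repair gene with a promoter peak in both libraries, with 95% counting intervals, in the 3 genotypes; the dashed line is the median of all promoters (0.583, 1.246 and 0.885). Most intervals cross the dashed line; Xrcc6 and Parp1 in GFI1-36S mice and Mgmt in GFI1-KD mice lie to its right, and Xrcc5 in GFI1-KD mice to its left.

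With vehicle the median differences of the members between genotypes were below 3 rank points. *GFI1-KD* minus *GFI1-36S* gave a median of −2.26 rank points (all genes 1.14), with 4 members higher (16.4% of all genes) and 4 lower (9.97%). *GFI1-36N* minus *GFI1-36S* gave 0.70 (all genes −0.67), with 7 higher (15.3%) and 6 lower (17.5%). *GFI1-KD* minus *GFI1-36N* gave −1.06 (all genes 1.73), with 4 higher (18.6%) and 7 lower (10.7%). The comparisons share libraries and are not independent. By rank, *Brca1* was lowest in *GFI1-36S* mice, 19.5 points below *GFI1-KD* and 27.0 below *GFI1-36N*. Its summit height over genome background was not lowest there, at 32.5 in *GFI1-36S*, 28.2 in *GFI1-36N* and 33.3 in *GFI1-KD* vehicle. In *GFI1-36S* vehicle its ranked peak did not reach the *Brca1* start, and in *GFI1-36N* vehicle the summit lay at a different place. *Xrcc6* was 28.7 and *Parp2* 25.7 points lower in *GFI1-KD* than in *GFI1-36N* mice, and *Fancc* 31.9 points lower in *GFI1-KD* than in *GFI1-36S* mice, each with rank intervals that did not overlap. Summit height over genome background was not lower for the first 2. It was 25.2 in *GFI1-36N* and 29.8 in *GFI1-KD* for *Xrcc6*, and 29.9 and 40.9 for *Parp2*. The *Fancc* summit held 165 fragments in *GFI1-36S* and 199 in *GFI1-KD* vehicle, without scaling. With the *GFI1-36S* treatments exchanged, the members' median was −7.51 for *GFI1-36N* minus *GFI1-36S* and −1.98 for *GFI1-KD* minus *GFI1-36S*. Values over all genes were not computed for this exchange.

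With curcumin the members were lower in *GFI1-KD* mice than in both other genotypes. The median of *GFI1-KD* minus *GFI1-36N* was −7.30 (all genes −2.72), with 4 members higher (12.8% of all genes) and 12 lower (23.6%). The genes with the lowest differences were *Rad52*, *Xrcc6* and *Rad50*, at −40.6, −28.8 and −26.7, and *Ercc5* was 30.4 points higher. The median of *GFI1-KD* minus *GFI1-36S* was −8.25 (all genes 5.06), with 8 higher (38.1%) and 17 lower (18.7%). *GFI1-36N* minus *GFI1-36S* gave 0.75 (all genes 7.57), with 8 higher (43.1%) and 11 lower (10.8%). The last 2 comparisons rest on the *GFI1-36S* curcumin library, and with the *GFI1-36S* treatments exchanged they gave members' medians of −2.81 and 4.25. Values over all genes were not computed for this exchange either. *Lig4* in both, and *Xrcc3* in both *GFI1-KD* comparisons, have peaks that do not overlap between the libraries.

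A wider list of 90 other repair genes, 86 of them with a peak, gave medians of −3.74, 1.82 and −0.83 in the *GFI1-36S*, *GFI1-36N* and *GFI1-KD* pairs. Of these genes, 23 were higher (15.0% of all genes) and 32 lower (41.4%) in *GFI1-36S*, 11 higher (19.3%) and 8 lower (11.3%) in *GFI1-36N*, and 13 higher (9.47%) and 15 lower (20.6%) in *GFI1-KD* mice. The positive median of the 37 members in *GFI1-36S* mice was thus not shared by the wider list. The largest changes there were the helicase gene *Recql4*, from 39.8 to 94.6 in *GFI1-36S* mice, and the nuclease gene *Mus81*, from 24.98 to 85.9 in *GFI1-36N* and from 87.1 to 22.0 in *GFI1-KD* mice. Of 32 DNA replication genes, 31 had a peak, and 23 were higher and 2 lower in *GFI1-36S* mice, with a median change of 13.91 (all genes −6.61). In *GFI1-36N* mice 10 were higher and 2 lower, and in *GFI1-KD* mice 2 were higher and 10 lower, to be read against the same shares of all genes. This list holds *Mcm4*, which shares its promoter peak with *Prkdc*.

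Peaks at repair promoters were narrower with curcumin in 2 genotypes. The median width was 1846 and 1179 bp in the *GFI1-36S* pair, 1643.5 and 1780 bp in the *GFI1-36N* pair and 2070 and 1554.5 bp in the *GFI1-KD* pair. In *GFI1-KD* mice all 36 members compared were narrower (median ratio 0.757), as were 88.2% of all promoters (0.815). In *GFI1-36S* mice 33 of 35 were narrower (0.611), as were 94.6% of all promoters (0.603). In *GFI1-36N* mice 24 of 35 were wider (1.047), as were 61.1% of all promoters (1.04). The members thus followed the other promoters in width. Summits lay within 500 bp of a start site in 30 to 32 of the members with a peak.

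Shared promoters were frequent. A second coding start lay within 2 kb of 15 of the 37 members, and 14 of these pairs were head to head, among them *Atm* with *Npat*, *Brca1* with *Nbr1*, *Palb2* with *Dctn5*, *Prkdc* with *Mcm4*, *Xrcc6* with *Desi1*, *Xrcc4* with *Tmem167*, *Lig4* with *Abhd13* and *Fancd2* with *Emc3*. The starts were 21 bp apart at *Lig4* and 489 bp apart at *Prkdc*, the shortest and the longest of these distances. The member's strongest peak was also the strongest promoter peak of the neighbour in 87 of 90 cases (15 members in 6 libraries). By the rule both genes then have the same rank, also where the peak does not reach 1 of the starts. The member's peak covered both starts in 57 of the 90, but in 1 of 6 libraries at *Atm* and *Xpc* and in 0 at *Xrcc3*. *Parp1*, *Fancc*, *Fancg*, *Chek1*, *Rad52*, *Mgmt* and *Slx4* had no such neighbour.

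Within the gene bodies, more than 1 kb from the start sites used here, 79 sites had a peak in at least 1 library, and 51 of them in 1 library only. Of the 79, 19 lay within 1 kb of another annotated transcript start of the comprehensive GENCODE set, among them the upstream *Slx4* peak. The number per library was 26 and 10 in the *GFI1-36S* pair, 19 and 47 in the *GFI1-36N* pair and 30 and 18 in the *GFI1-KD* pair. There were 9 sites in exactly 5 libraries, and at all 9 the library without a peak was *GFI1-36S* curcumin, which has the fewest peaks. Over the gene bodies of all protein-coding genes, this was so at 90.5% of 4216 such sites. They lay in *Fanca* (3), *Mre11a* (2), *Xrcc4*, *Parp1*, *Xpc* and *Fancc*. In *Fanca* the site chr8:123279149-123282373, which covers another annotated transcript start, had fold enrichments of 9.76, 9.92, 8.83, 14.8 and 11.4 in *GFI1-36S* vehicle, *GFI1-36N* vehicle and curcumin and *GFI1-KD* vehicle and curcumin. In *Xpc* the site chr6:91488275-91494183 had 9.42, 7.62, 16.1, 11.0 and 7.13 in the same libraries. Conversely, 8 sites were found in *GFI1-36S* curcumin only, 7 in *Xrcc6* and 1 in *Fancc*.

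Promoter sequences from RefSeq (GRCm38.p6, 250 bp before to 50 bp after the start) were matched for 31 of the 37 members. Each motif was searched on both strands. A GC box (GGGCGG) was found in 58.1% of member promoters, against 64.9% of the 9833 genes with a promoter peak and a RefSeq promoter. A CCAAT box (CCAAT) was found in 58.1% against 38.4%, an ETS core (CGGAAG) in 41.9% against 32.0%, and an E2F core (TTCGCGC or TTGGCGC) in 19.4% against 7.35%, which is 6 of 31 members. A TATA box (TATAAA) was found in 9.68% against 6.88%. The median number of CpG was 22 in members and 21 in the genes with a peak, and *Slx4*, at the start used by the rule, had the fewest. A match describes the letters in the window only.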

How the data were processed

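H3K9ac ChIP-seq peak lists of 6 libraries were used, mapped to samples by their labels. Per the methods of the study, adapters were removed with Trim Galore, reads were aligned to mm10 with BWA-MEM, and peaks were called with MACS2 and filtered against blacklisted regions. The control used for peak calling and the threshold are not given in the sources used here. The deposited lists hold the authors' peak score, the fold enrichment (a ratio) at the summit, and −log10 of the p-value and q-value, as the authors' MACS2 run wrote them. Promoters were taken 1 kb on either side of any start site in the basic GENCODE M21 set, with a minimum overlap of 1 bp, mitochondrial genes left out. The fold enrichment and −log10 p of a deposited peak fix its fragments at the summit, which were recovered for 98.6% to 100.0% of peaks, within 0.002 of −log10 p. Library totals are not part of these files. Summit ratios were divided by the genome background of each library. Intervals are 95% exact Poisson or binomial intervals and cover counting error only. There was 1 library per group, so no test was run. Members and lists were chosen with earlier results of these data known. For each genotype the 3 largest rises and falls past 10 points, every member with a peak in only some libraries, *Mgmt* and *Slx4* were given in full; other members were named by role. Alternatives were another ranking value, window, peak set and gene set, a call at 20 points, and exchanged *GFI1-36S* treatments; the comprehensive GENCODE set, and the exchange in the comparisons between genotypes, were added after seeing the data. The recovery and ranks were tested on simulated data. Python 3.11.15, numpy 2.4.6, pandas 2.3.3, scipy 1.17.1 and matplotlib 3.10.9 were used.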

Additional observations from a re-analysis of the deposited data

Results flagged for a closer look

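Several members changed with curcumin by at least 10 rank points in opposite directions in 2 genotypes. Each genotype has 1 library per treatment, so none of these differences was tested. Between *GFI1-36N* and *GFI1-KD* mice the change in *Rad52* differed by 45.81 points (27.98 and −17.83) and that in *Brca2* by 29.27 points (14.28 and −14.99).

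The other differences involve the *GFI1-36S* pair, whose curcumin library stood apart. The change in *Fancc* in *GFI1-36S* minus that in *GFI1-36N* mice was −64.26, and minus that in *GFI1-KD* mice −72.44. Ranked by −log10 p, the *Fancc* change in *GFI1-KD* mice was 8.53 and did not pass 10 points. For *Msh3* these values were −32.1 and −25.96. *Xrcc3* gave −22.05 against *GFI1-36N*, where both changes compare peaks that do not overlap between vehicle and curcumin. Against *GFI1-KD* mice, *Ercc5* gave −38.86 and *Brca1* 41.75. With the *GFI1-36S* treatments exchanged, the changes of these members in *GFI1-36S* mice have the opposite sign.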

How the results depend on the processing

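Of 139 values that answer a comparison, 124 stayed within a band (medians, same sign) or within 1.5 times (counts), 10 moved and 5 reversed. The band is a 95% interval of the median taken over the members, which are not replicates. The 124 include the *GFI1-36S* counts of 12 higher and 9 lower, which the exchange of treatments swaps. Among the 124, the *GFI1-36N* median change of 2.97 was 1.39 with equal numbers of top peaks, and *GFI1-KD* minus *GFI1-36S* with vehicle, −2.26, was −0.46 by −log10 p. With the treatments exchanged, the median change in *GFI1-36S* mice was −5.32, and *GFI1-36N* minus *GFI1-36S* with vehicle was −7.51. The median change in *GFI1-KD* mice was −1.38, and 0.85 when ranked by −log10 p and 0.80 when the summit had to lie in the window, so its sign is not settled. The *GFI1-36N* minus *GFI1-36S* difference with curcumin was −4.12 with equal numbers of top peaks. At a call of 20 points, 6 members were higher and 4 lower for *GFI1-36S*, 3 higher and 1 lower for *GFI1-36N*, and 1 higher and 1 lower for *GFI1-KD*. Members lower in *GFI1-36N* mice numbered 2 with a 3 kb window and 2 with the comprehensive set. Members higher in *GFI1-KD* mice numbered 4 by −log10 p and 5 with genes of all biotypes. Shares of all genes were not computed for these settings or for the call at 20 points. Of 126 values of named members, 116 kept their call, 6 lost it and 4 reversed. The 6 were *Slx4* and, in *GFI1-KD* mice by −log10 p, *Fancc* at 8.53. The 4 that reversed were all *Slx4*: 6.79 and 6.90 in *GFI1-36S* and 7.91 and 7.83 in *GFI1-36N* mice, with the 3 kb window and the comprehensive set. No paired analysis was possible because each group has 1 library. The 95% counting interval of 1 rank was about 25 points wide in full at a median member peak. Within a genotype, the intervals of the 2 libraries overlapped for every change of 10 to 25 points except that of *Xrcc5* in *GFI1-KD* mice.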
